A study of Mus musculus with 8 samples.

Results

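Sox9, Sox5 and Sox6 are the 3 transcription factor genes of the chondrogenic Sox trio. They were found by matching gene symbols to the Ensembl identifiers of a table with 50462 genes, and all 3 were present. RNA-seq had been performed on cartilage dissected from the medial side of the knee of male C57BL/6J mice labelled wild-type control, with 4 mice in each of 2 groups and 1 library per mouse. Naive mice received no surgery and no treatment, were taken at day 0 at an age of 11 weeks. DMM mice had the medial meniscus of the left knee destabilised at 11 weeks of age by cutting its ligament to the tibia, received anaesthetic and buprenorphine, and were taken 42 days later at an age of 17 weeks. DMM is a surgical model of post-traumatic osteoarthritis. No sham surgery group was analysed here. Surgery, its drugs and 6 weeks of ageing cannot be told apart in any comparison between the groups.

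SOX9 starts and maintains the chondrocyte programme. It binds enhancers of cartilage matrix genes such as Col2a1 and Acan and switches them on. SOX5 and SOX6 are close relatives of each other that carry no activation domain of their own. They bind the same enhancers as pairs joined by a coiled coil and strengthen the action of SOX9. Sox6 also has known roles outside cartilage, in red blood cell precursors and in muscle fibres, and Sox5 in several other tissues.

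All 3 proteins bind DNA through an HMG box, and the bases that encode it show how near the genes are to each other. They are printed from the GENCODE vM21 transcripts of the GRCm38 build, 5′ to 3′ on the coding strand, because a read can be assigned between relatives only where their sequences differ. Each stretch holds 79 codons (237 bases) from 2 exons. Capitals mark the 127 positions (53.6%) at which the 3 genes have the same base.
Sox9, codons 101 to 179, chr11:112782885-112783914, plus strand: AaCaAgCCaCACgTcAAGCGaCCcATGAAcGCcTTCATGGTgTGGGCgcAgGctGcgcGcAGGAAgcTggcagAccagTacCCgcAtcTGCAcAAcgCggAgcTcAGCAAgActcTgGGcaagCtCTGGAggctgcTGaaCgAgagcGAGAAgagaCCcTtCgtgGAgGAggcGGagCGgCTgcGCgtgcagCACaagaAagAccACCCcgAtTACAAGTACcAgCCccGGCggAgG
Sox5, codons 552 to 630, chr6:143835294-143841291, minus strand: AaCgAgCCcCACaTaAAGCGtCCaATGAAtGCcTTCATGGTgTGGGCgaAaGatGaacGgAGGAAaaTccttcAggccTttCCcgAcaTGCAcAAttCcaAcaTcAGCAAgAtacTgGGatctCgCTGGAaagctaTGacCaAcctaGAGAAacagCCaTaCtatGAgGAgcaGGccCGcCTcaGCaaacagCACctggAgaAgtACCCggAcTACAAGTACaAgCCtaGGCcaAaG
Sox6, codons 616 to 694, chr7:115486646-115489780, minus strand: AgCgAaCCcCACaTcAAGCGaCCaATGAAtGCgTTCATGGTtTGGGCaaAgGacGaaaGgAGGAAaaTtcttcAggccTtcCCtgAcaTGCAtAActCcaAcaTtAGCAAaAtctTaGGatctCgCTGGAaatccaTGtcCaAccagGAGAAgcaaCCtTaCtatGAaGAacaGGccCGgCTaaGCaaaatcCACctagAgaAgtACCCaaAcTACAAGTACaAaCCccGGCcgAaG
Sox5 and Sox6 were identical at 82.3% of these bases, Sox9 and Sox5 at 62.4%, and Sox9 and Sox6 at 58.2%. Over whole transcripts the longest identical run was 23 bases between Sox5 and Sox6, 18 between Sox9 and Sox5, and 14 between Sox9 and Sox6. No stretch of 31 bases, the word length used for this check, was shared between any pair of the trio.

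The genes differ in size. Sox9 (ENSMUSG00000000567) lies on chromosome 11 from 112782224 to 112787760 and has 1 annotated transcript of 4135 bases. Sox5 (ENSMUSG00000041540) spans 953.6 kb of chromosome 6, from 143828425 to 144781977, with 14 transcripts of 351 to 7243 bases. Sox6 (ENSMUSG00000051910) spans 567.9 kb of chromosome 7, from 115470872 to 116038796, with 16 transcripts of 331 to 8668 bases. All 3 are protein coding.

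The libraries held 12479443 to 16548002 estimated counts. All 10 chondrocyte markers of the list used here were detected. They took 0.527 to 0.971% of the counts in naive and 0.940 to 1.38% in DMM libraries, with 4 called higher. A gene is called here at an adjusted p of at most 0.05 in DESeq2 with at least a 1.5-fold change. Of all genes tested, 7.75% were called higher and 5.92% lower in DMM. The label gives cartilage and chondrocyte, but lists of other cells took shares of similar size. These shares are sums of counts that are not scaled by length, so they do not compare numbers of cells. Col1a1 made up most of the osteoblast and osteocyte share in every library, and Prg4 was the most abundant gene of the chondrocyte list. The osteoblast and osteocyte list took 0.888 to 1.30% in naive and 2.52 to 3.13% in DMM libraries (8 of 8 called higher), the neutrophil list 0.869 to 1.22% and 0.409 to 0.860% (8 of 8 called lower), and the erythroid list 0.720 to 1.18% and 0.403 to 0.831% (8 of 9 called lower). Hypertrophic chondrocyte markers took 0.0609 to 0.0888% and 0.126 to 0.221% (4 of 5 called higher), synovial fibroblast markers 0.0624 to 0.191% and 0.353 to 0.750% (4 of 6 called higher), and endothelial markers 0.0189 to 0.0266% and 0.0305 to 0.0350% (2 of 5 called higher). The osteoclast list took 0.0714 to 0.111% and 0.0890 to 0.153% (1 of 5 tested called higher). Macrophage markers lay between 0.0378 and 0.0462%, B cell markers between 0.0123 and 0.0421%, Schwann cell markers between 0.00405 and 0.00597% and skeletal muscle markers between 0.000391 and 0.00904% in all libraries, with 0 genes of these 4 lists called by DESeq2, edgeR or limma-voom and 3 lower at an unadjusted p under 0.05. Among those 3, Mbp of the Schwann cell list also passed adjusted p, short of 1.5-fold (log2 fold change -0.47, adj. p (DESeq2) = 0.00555). Sox10 and Sox2 of the Schwann cell list stayed under 10 counts in every library. The smallest p of the exact permutation test over 4 against 4 libraries is 0.0286. It was reached by the hypertrophic chondrocyte, neutrophil, osteoblast and osteocyte, endothelial, synovial fibroblast and Schwann cell lists, none of which passed adjusted over the 12 lists (adjusted p = 0.0572, two-sided). In bulk RNA, fewer cells of a type and less RNA per cell cannot be told apart.

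To ask whether the trio changed as a unit after joint destabilisation, each gene was compared between the groups. Sox9 and Sox6 passed the test in opposite directions. Sox9 rose 2.10-fold in DMM, Sox6 fell to 0.672 of its naive level, and Sox5 did not pass. Across the genome, 2429 of 17760 genes tested (13.7%) were called, which here means an adjusted p of at most 0.05 in DESeq2 with at least a 1.5-fold change. Of these, 1377 (7.75% of genes tested) were higher and 1052 (5.92%) lower in DMM. The balance depends on the scaling, since 56.7% of calls were higher with the median-of-ratios size factors used here and 80.6% under scaling by the total count, which moved the median log2 fold change of all genes from -0.02 to 0.14.

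Sox9 had normalised counts of 817.0, 804.9, 918.3 and 816.4 in naive 1 to 4. In DMM 1 to 4 it had 1116, 1954, 1803 and 2182. Every DMM library lay above every naive library, as it did for 11.9% of all genes tested. The naive values were close together and the DMM values were spread widely, with DMM 1 nearest to the naive group. The mean went from 839.1 ± 53.1 to 1764 ± 459.1 normalised counts (SD, 4 mice per group), or a log2 change of 1.07 (SE 0.18, 95% interval 0.71 to 1.43, adj. p (DESeq2) = 5.36e-07). Without DMM 1 the log2 fold change was 1.24. Sox9 was called in all 8 fits that omitted a library. Tested against a change of 1.5-fold in place of none, Sox9 had an unadjusted p of 0.00833 and did not pass adjusted over all genes (adj. p (DESeq2) = 0.623).

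**Figure D1:**
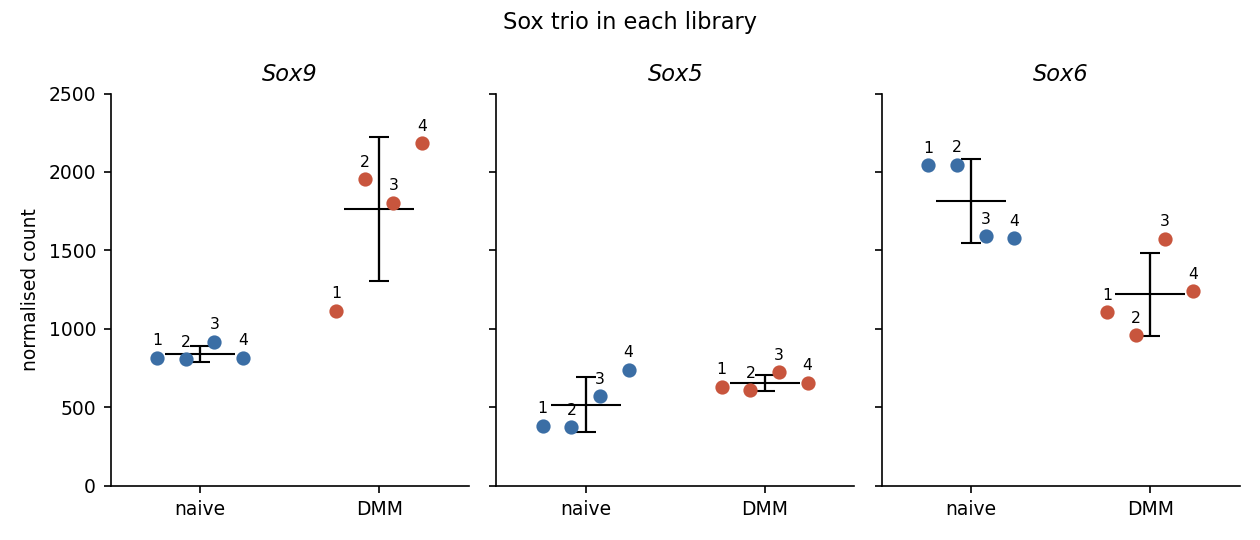
Normalised counts of Sox9, Sox5 and Sox6 in the 4 naive (blue) and 4 DMM (red) libraries. Points are single mice, numbered by replicate, and lines show the mean and SD. Sox9 lies between 804.9 and 918.3 in naive and between 1116 and 2182 in DMM libraries, Sox5 overlaps between the groups, and the lowest naive value of Sox6 (1578) is just above its highest DMM value (1574).

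Sox6 had normalised counts of 2042, 2047, 1590 and 1578 in naive 1 to 4. In DMM 1 to 4 it had 1104, 960.0, 1574 and 1238. Naive 1 and 2 were high, and DMM 3 was the DMM library nearest to the naive group. The groups did not overlap, but only by the gap between 1574 and 1578. DMM lay wholly below naive for 10.3% of all genes tested. The mean went from 1815 ± 265.8 to 1219 ± 262.5 normalised counts (SD, 4 mice per group), or a log2 change of -0.57 (SE 0.17, 95% interval -0.90 to -0.24, adj. p (DESeq2) = 0.00557). The change passed the test but missed the 1.5-fold threshold, so Sox6 was not among the called genes. An adjusted p of 0.05 or less with a decrease was found for 11.2% of all genes tested. Sox6 passed adjusted p in all 8 fits that omitted a library, and 3 of them also took it past 1.5-fold. These were the fits without naive 3 (-0.63), without naive 4 (-0.64) and without DMM 3 (-0.72).

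The level of Sox6 moved with that of red blood cell transcripts. The erythroid list of 9 genes took 1.13% and 1.18% of the counts in naive 1 and 2, where Sox6 was highest. It took 0.803%, 0.720% and 0.831% in naive 3, naive 4 and DMM 3, in which Sox6 lay between 1574 and 1590. In DMM 1, 2 and 4 it took 0.431%, 0.403% and 0.414%, and Sox6 was lowest there.

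Slc4a1 and Ermap are the erythroid genes among the 100 genes most like Sox6. Slc4a1, the anion exchanger of the red cell membrane, had normalised counts of 19365, 19945, 14612 and 11953 in naive 1 to 4 and of 6897, 6297, 12044 and 7381 in DMM 1 to 4. Ermap, a red cell membrane protein gene, had 3113, 3031, 2085 and 1969 in naive and 1181, 1086, 1801 and 1320 in DMM libraries. In both genes DMM 3 was the highest DMM library and naive 1 and 2 were the highest of all, as in Sox6. Both were picked for their likeness to Sox6 over these same libraries, so this match follows from the choice. Epor, the erythropoietin receptor, differed, with 308.7, 324.6, 206.6 and 190.5 in naive and 133.5, 153.7, 148.2 and 116.4 in DMM libraries, so that DMM 2 was its highest DMM library. Epor was chosen after its values were seen. Over the 8 libraries, the median Pearson r between Sox6 and the 9 erythroid genes was 0.97 on log2 normalised counts, and it was 0.91 for deviations from the group means. For the 8 neutrophil genes the corresponding medians were 0.85 and 0.62, and for the 1 Schwann cell gene compared r was 0.84 and 0.54. For the 10 chondrocyte genes they were -0.35 and 0.32. Over both groups, the macrophage median was 0.12 and those of the other lists compared were negative. All genes of a library share its size factor, and the values describe 8 samples only.

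A fit with the erythroid level as a covariate, chosen after seeing the data, gave Sox6 a log2 fold change of -0.08 (SE 0.16, adj. p (DESeq2) = 0.935). In the same fit Sox9 kept a log2 fold change of 1.03 (SE 0.29, adj. p (DESeq2) = 0.0131), and Sox5 was at 0.11 (SE 0.32, adj. p (DESeq2) = 0.961). The covariate itself differs between the groups, so this fit cannot tell the group from the erythroid level, and it called 825 genes in place of 2429. Neutrophil transcripts also moved in the direction of Sox6, at 0.869 to 1.22% in naive and 0.409 to 0.860% in DMM libraries, and their part in the result was not tested.

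**Figure D2:**
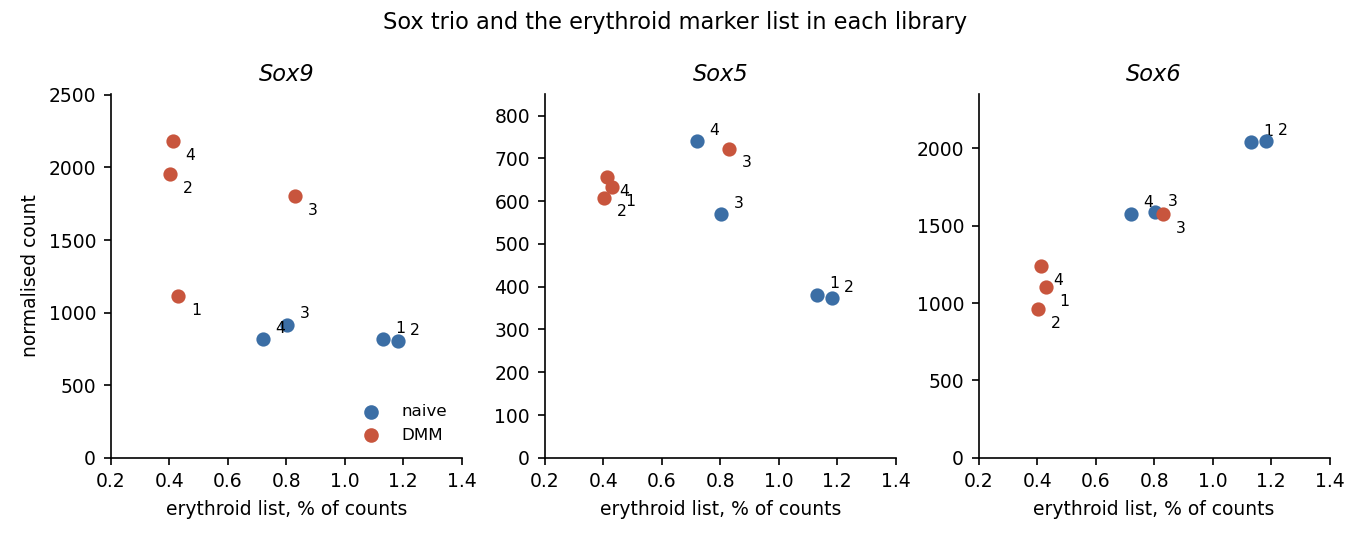
Normalised counts of Sox9, Sox5 and Sox6 (vertical axes, each panel with its own scale from 0) against the share of counts in the 9 erythroid genes (horizontal axes, %). Each point is a library, blue for naive and red for DMM, numbered by replicate. Sox6 climbs from 960.0 in DMM 2 at 0.403% to 2047 in naive 2 at 1.18% with both groups on the same path, whereas Sox9 in DMM 3 (1803 at 0.831%) is far above naive 3 (918.3 at 0.803%).

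Sox5 had normalised counts of 381.7, 372.5, 570.4 and 740.4 in naive 1 to 4. In DMM 1 to 4 it had 631.9, 608.4, 722.8 and 655.2. The DMM libraries were close together, and the naive libraries covered the whole DMM range, with naive 4 the highest of all 8. Naive 1 and 2, the libraries with the most Sox6, had the least Sox5. The mean was 516.3 ± 175.1 in naive mice against 654.6 ± 49.3 in DMM mice (SD, 4 mice per group), or a log2 change of 0.34 (SE 0.21, 95% interval -0.07 to 0.75, adj. p (DESeq2) = 0.250). An increase at an adjusted p of 0.05 or less was found for 11.4% of all genes tested. The interval includes no change and a 1.5-fold increase alike. Without naive 4 the log2 fold change was 0.57 and passed adjusted p (adj. p (DESeq2) = 0.00666), though not the fold threshold. The other 7 fits that left out 1 library gave log2 fold changes of 0.22 to 0.39, none past the test.

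The balance between the genes was then read within each library, which needs no scaling between libraries. Sox6 over Sox9 was 2.50, 2.54, 1.73 and 1.93 in naive 1 to 4 and 0.988, 0.491, 0.873 and 0.568 in DMM 1 to 4. Naive libraries thus held more Sox6 than Sox9 counts and DMM libraries fewer, with no overlap. The log2 ratio fell by 1.616, or 3.07-fold (two-sided exact permutation test, p = 0.0286, the smallest the design allows). Adjusted over the 3 pairs of genes compared, this missed the threshold (adjusted p = 0.0857). Naive 1 and 2, with 1.13% and 1.18% of counts in the erythroid list, had the highest Sox6 over Sox9. Among DMM libraries, DMM 1 at 0.431% lay above DMM 3 at 0.831%. The part of the erythroid level in the ratios between trio genes was not tested.

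Sox5 over Sox9 was 0.467, 0.462, 0.621 and 0.907 in naive and 0.566, 0.312, 0.401 and 0.300 in DMM libraries. The groups overlapped, and the log2 difference was -0.63 (two-sided exact permutation test, p = 0.114, adjusted p = 0.114). Sox5 over Sox6 was 0.187, 0.182, 0.359 and 0.470 in naive and 0.573, 0.634, 0.459 and 0.529 in DMM libraries. Naive 4 reached into the DMM range, and the log2 difference was 0.99 (two-sided exact permutation test, p = 0.0571, adjusted p = 0.0857). The naive libraries were split in this ratio, with naive 1 and 2 lower than naive 3 and 4.

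**Figure D3:**
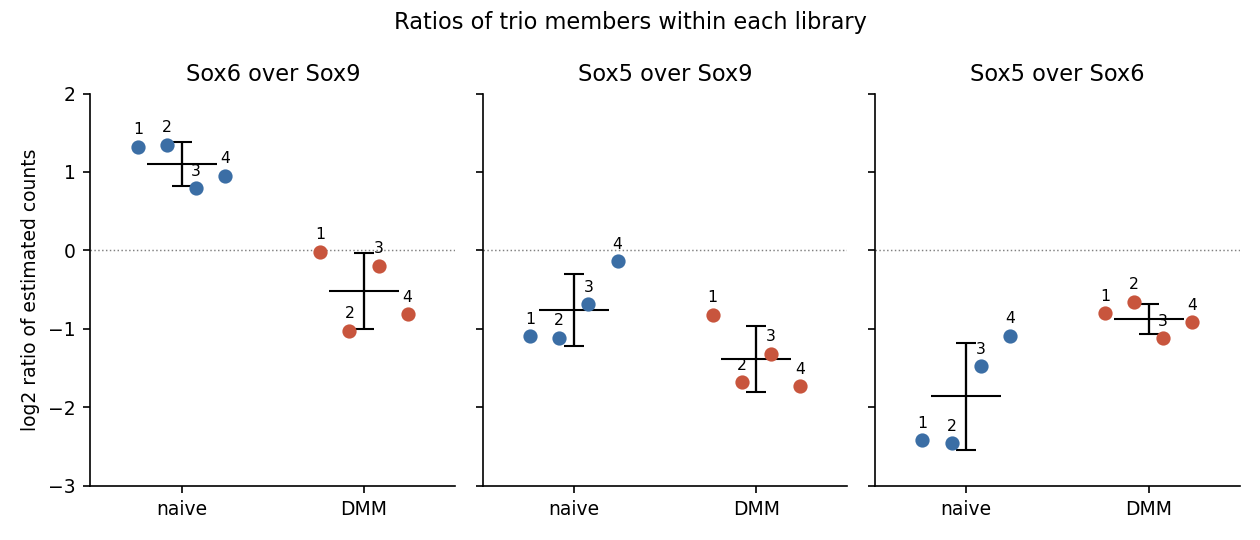
Log2 ratios of the estimated counts of 2 trio genes within each library, for the 4 naive (blue) and 4 DMM (red) mice, numbered by replicate, with mean and SD. The dotted line marks equal counts. Only Sox6 over Sox9 parts the groups, from 0.79 to 1.35 in naive and from -1.03 to -0.02 in DMM libraries.

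Levels of different genes can be compared only per length. Divided by the longest transcript, the level in naive libraries was 209.3 ± 30.7 normalised counts per kb for Sox6, 202.9 ± 12.8 for Sox9 and 71.3 ± 24.2 for Sox5 (SD, n = 4). Sox6 and Sox9 did not differ beyond their spread there. In DMM libraries the order was Sox9 at 426.6 ± 111.0, Sox6 at 140.6 ± 30.3 and Sox5 at 90.4 ± 6.81 normalised counts per kb (SD, n = 4). On this scale Sox9 went from percentile 80.6 of 17706 tested genes with a known length to percentile 92.8, Sox6 from 81.3 to 72.5 and Sox5 from 54.4 to 60.6. The order rests on which transcripts are used. With the mean transcript length, Sox6 stood at 503.9 ± 73.8 normalised counts per kb in naive libraries, above Sox9 at 202.9 ± 12.8 and Sox5 at 199.5 ± 67.7, and at 338.5 ± 72.9 in DMM libraries, where its spread met that of Sox9. Dividing every library by the same length leaves the difference between the groups within a gene unchanged. Whether the groups differed in the transcripts used of Sox5 and Sox6 was not tested, and the fits had no length offsets.

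**Figure D4:**
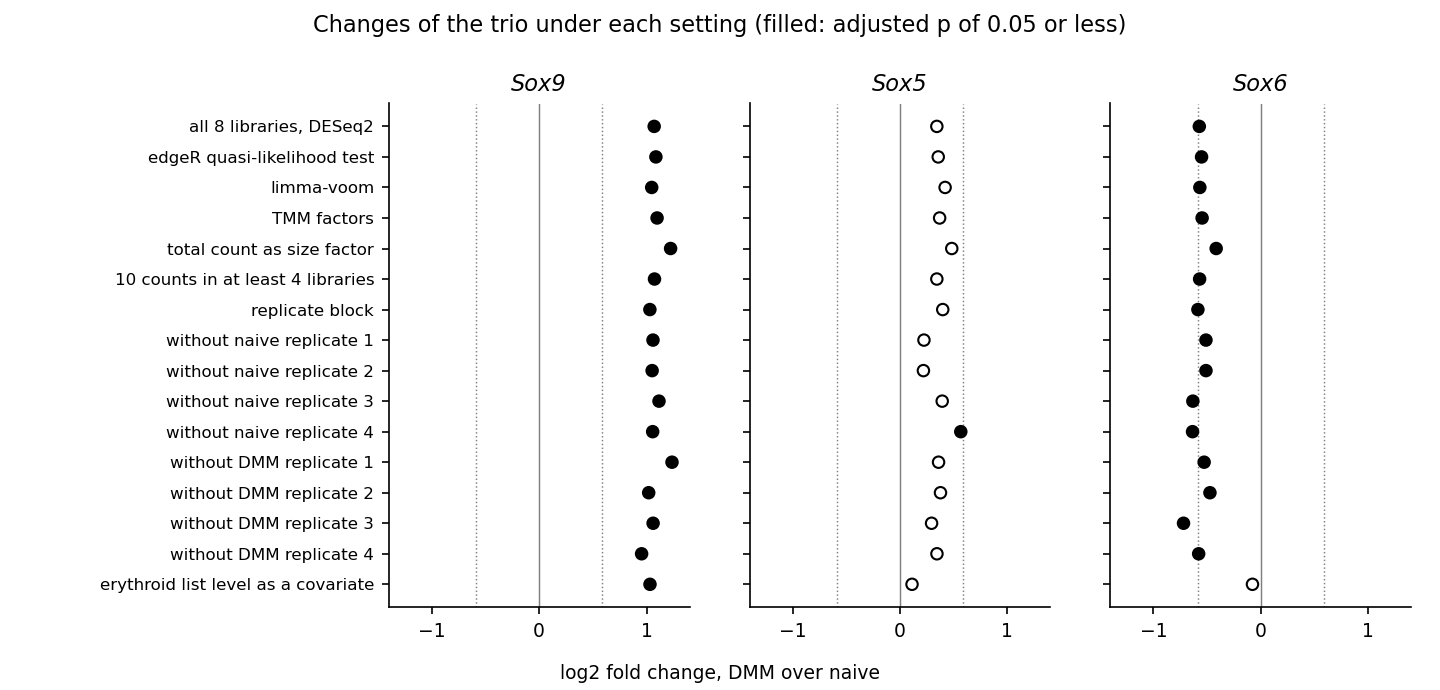
Log2 fold changes (DMM over naive) of Sox9, Sox5 and Sox6 under the fit of all 8 libraries with DESeq2 and under other settings, among them each fit that left out 1 library. Filled points passed an adjusted p of 0.05, and dotted lines mark 1.5-fold. Sox9 stays between 0.95 and 1.24, Sox5 is open in all but the fit without naive 4, and Sox6 lies on both sides of the 1.5-fold line and reaches -0.08 with the erythroid covariate.

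The trio belongs to a family of 20 HMG-box genes in the mouse (Sox genes and Sry), of which 12 had enough counts to be tested. In the family, 4 were called higher in DMM (Sox9, Sox13, Sox17 and Sox18) and 0 lower, beside 7.75% and 5.92% of all genes tested. edgeR and limma-voom also called 4 higher and 0 lower, Sox6 alone was lower at an unadjusted p under 0.05 in DESeq2, and the median log2 fold change of the 12 was 0.39, beside -0.02 over all genes tested. Without the trio, 3 of 9 tested genes were called higher, with a median of 0.44. Sox17 and Sox18 are endothelial regulators. Sox17 rose from 25.4 ± 7.59 to 62.1 ± 10.4 normalised counts (SD, 4 mice per group), or a log2 change of 1.30 (adj. p (DESeq2) = 0.000225). Sox18 rose from 88.4 ± 26.6 to 169.9 ± 42.7 (SD, 4 mice per group), by 0.95 (adj. p (DESeq2) = 0.00352). The endothelial list took 0.0189 to 0.0266% of counts in naive and 0.0305 to 0.0350% in DMM libraries, without overlap, and its part in these changes was not tested. Of its 5 genes, 2 were called higher, whereas Pecam1, the most abundant, was at -0.03 (adj. p (DESeq2) = 0.927).

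Sox4, a factor of early skeletal progenitors among many other cells, went from 802.0 ± 77.6 to 1088 ± 137.9 normalised counts (SD, 4 mice per group). Its log2 fold change of 0.44 passed the test (adj. p (DESeq2) = 0.00599) and stayed under 1.5-fold. The nearest relatives of the trio were singled out after their values were seen. Sox13, which belongs with Sox5 and Sox6 to the SoxD group, rose from 62.6 ± 8.69 to 102.3 ± 17.0 normalised counts (SD, 4 mice per group), by 0.71 (adj. p (DESeq2) = 0.00757), and lost its call without DMM 1 (adj. p (DESeq2) = 0.0624). The 3 SoxD genes therefore had log2 fold changes of 0.71, 0.34 and -0.57, and whether these differ was tested only for Sox5 and Sox6, above. Of the SoxE group, Sox8 was at 58.0 ± 6.34 in naive mice against 63.7 ± 14.3 in DMM mice (SD, 4 mice per group, adj. p (DESeq2) = 0.782) and Sox10 stayed under 10 counts, so Sox9 was its only abundant member.

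**Figure D5:**
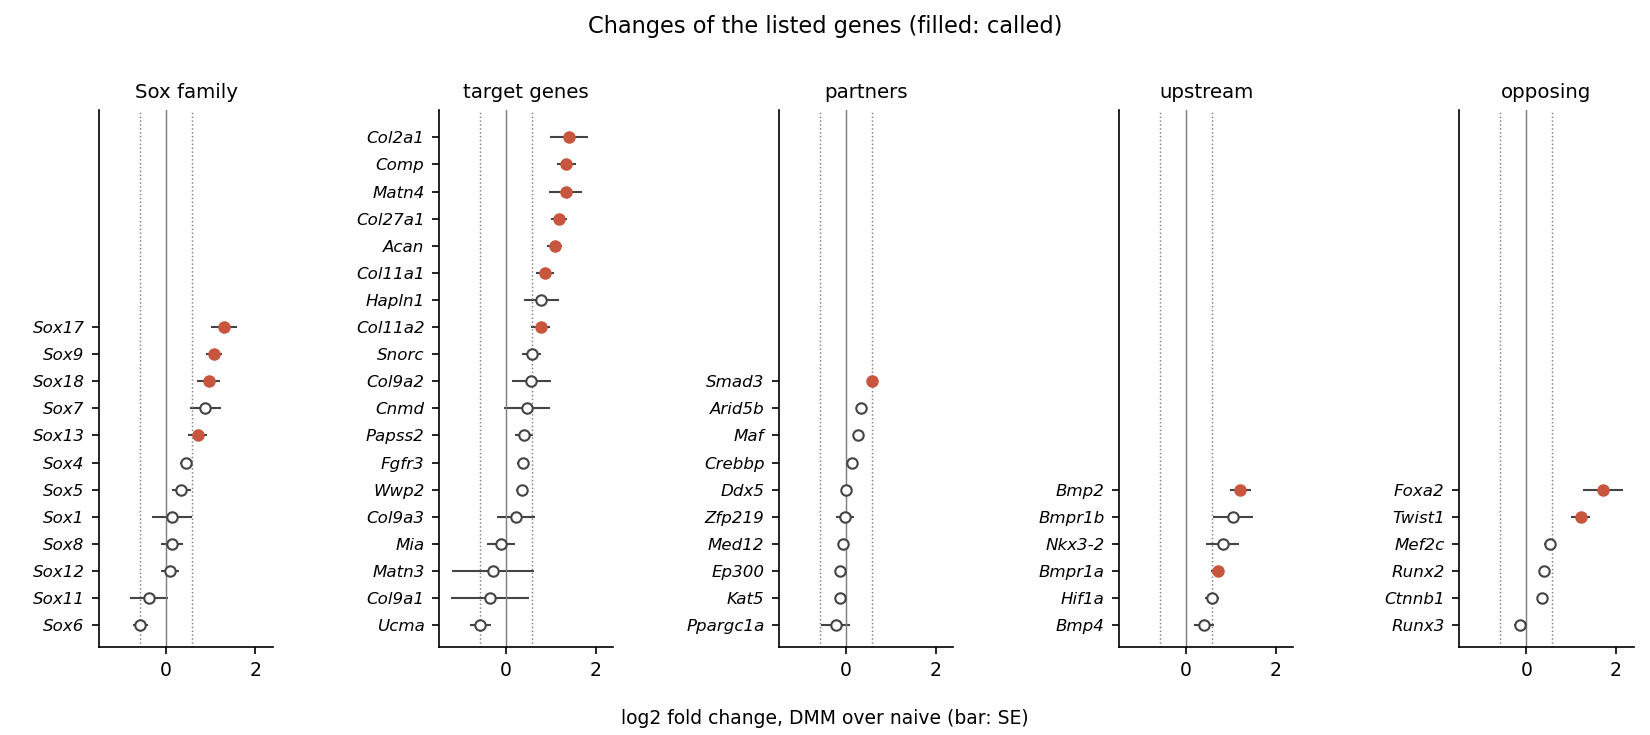
Log2 fold changes (DMM over naive) of the tested genes of 5 lists, with SE as bars. Filled points were called, and dotted lines mark 1.5-fold. All filled points lie above 0, with 7 among the target genes, 4 in the Sox family and 5 in the other lists together, while Sox6 is the lowest of the Sox family.

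The next list holds genes known to be switched on by SOX9, mostly of the cartilage matrix. Of 20 listed targets, 19 were tested, 7 were called higher and 0 lower (also by edgeR and limma-voom), 2 were lower at an unadjusted p under 0.05 (Matn1 and Ucma), and 15 had a positive log2 fold change. Of all genes tested, 7.75% were called higher, and the median log2 fold change was 0.57 for the targets and -0.02 over all genes. The 7 were Col2a1, Col11a1, Col11a2, Col27a1, Acan, Matn4 and Comp, each of which was called in every fit that left out 1 library. The chondrocyte list took 0.527 to 0.971% of counts in naive and 0.940 to 1.38% in DMM libraries. All its genes but Prg4 are also listed targets, so it is no separate measure. The osteoblast and osteocyte list took 0.888 to 1.30% and 2.52 to 3.13%, and the hypertrophic chondrocyte list 0.0609 to 0.0888% and 0.126 to 0.221%. The neutrophil list took 0.869 to 1.22% and 0.409 to 0.860%, and the erythroid list 0.720 to 1.18% and 0.403 to 0.831%. The part of these other lists in the change of the targets was not tested. Acan, the core protein of the large cartilage proteoglycan, rose from 6962 ± 1277 to 14809 ± 2452 normalised counts (SD, 4 mice per group), by 1.09 on the log2 scale (adj. p (DESeq2) = 7.75e-09). Comp, a matrix protein that binds collagen, rose from 8288 ± 1483 to 21121 ± 6380 (SD, 4 mice per group), by 1.35 (adj. p (DESeq2) = 6.40e-09).

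Among the collagens, Col27a1 rose by 1.19 (adj. p (DESeq2) = 3.33e-09), Col11a1 by 0.88 (adj. p (DESeq2) = 0.000309) and Col11a2 by 0.77 (adj. p (DESeq2) = 0.00197). Col2a1, the main collagen of cartilage and singled out after its value was seen, went from 15101, 36985, 25885 and 17945 normalised counts in naive 1 to 4 to 43988, 40178, 73292 and 97825 in DMM 1 to 4. The groups did not overlap, but naive 2 came near to DMM 2, and the log2 fold change was 1.41 (SE 0.43, adj. p (DESeq2) = 0.00703). Other well known targets did not pass the test, among them Col9a1 at -0.36 (SE 0.87), Matn3 at -0.29 (SE 0.93, adj. p (DESeq2) = 0.874) and Hapln1 at 0.79 (SE 0.39, adj. p (DESeq2) = 0.130), which were likewise chosen after their values were seen. Their spread was wide. Col9a1 was at 98.5 normalised counts in naive 1 and 1711 in naive 2.

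Genes of proteins that work with SOX9 were called no more often than the 13.7% of all genes tested. Of 10 listed partners and coactivators, all tested, 1 was called higher and 0 lower (also by edgeR and limma-voom), 0 were lower at an unadjusted p under 0.05, and 4 had a positive log2 fold change. The called gene was Smad3, which carries TGF-beta signals, at 699.5 ± 88.1 normalised counts in naive mice against 1049 ± 52.1 in DMM mice (SD, 4 mice per group), or a log2 change of 0.59 (adj. p (DESeq2) = 2.14e-05). It lay on the 1.5-fold threshold and lost its call without naive 1, naive 2, DMM 3 or DMM 4. Maf (0.26, adj. p (DESeq2) = 0.0164) and Arid5b (0.34, adj. p (DESeq2) = 0.0347) passed the test with smaller changes, but not under every setting. Maf missed it with the replicate block (adj. p (DESeq2) = 0.116) and without naive 1, 2 or 3 or DMM 1 or 2, at 0.0610 to 0.0976. Arid5b missed it with the block (adj. p (DESeq2) = 0.0768), without independent filtering (adj. p (DESeq2) = 0.0671), in limma-voom (adjusted p = 0.0523) and without any of naive 1 to 4, DMM 1 or DMM 3, at 0.0606 to 0.1196. Crebbp, one of the histone acetyltransferases that SOX9 recruits, was at 0.12 (adj. p (DESeq2) = 0.419), and Kat5 at -0.15 (adj. p (DESeq2) = 0.412), which became 0.00 under total count scaling.

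Of 6 genes listed as acting upstream of Sox9, all had a positive log2 fold change, 2 were called higher and 0 lower (3 and 0 by edgeR, 2 and 0 by limma-voom), 0 were lower at an unadjusted p under 0.05, and the median was 0.76. Of all 17760 genes tested, 7.75% were called higher and 8579 had a positive log2 fold change, with a median of -0.02. Bmp2, a ligand that induces Sox9, rose from 215.5 ± 45.8 to 500.1 ± 151.6 normalised counts (SD, 4 mice per group), by 1.22 (adj. p (DESeq2) = 8.51e-06). Bmpr1a, a receptor for it, rose from 436.2 ± 62.8 to 712.0 ± 95.9 (SD, 4 mice per group), by 0.71 (adj. p (DESeq2) = 4.90e-05). Hif1a, a regulator of the response to low oxygen, passed the test at 0.58 (adj. p (DESeq2) = 0.00109) and was just under the fold threshold. Bmpr1b at 1.05 (adj. p (DESeq2) = 0.0829) and Nkx3-2 at 0.81 (adj. p (DESeq2) = 0.0919) did not pass. Without naive 4, 5 of the 6 were called.

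The last list holds factors that oppose the trio or lead to hypertrophy and bone. Of 6 listed genes, 2 were called higher and 0 lower (also by edgeR and limma-voom), 0 were lower at an unadjusted p under 0.05, and 5 passed the test with an increase, with a median log2 fold change of 0.47. Over all genes tested the shares were 7.75% called higher and 11.4% past the test with an increase, and the median was -0.02. Twist1, a repressor of chondrocyte genes, rose from 112.1 ± 26.3 to 259.2 ± 45.2 normalised counts (SD, 4 mice per group), by 1.22 (adj. p (DESeq2) = 1.11e-06). Foxa2, a regulator of hypertrophic genes, rose from 9.84 ± 1.85 to 32.2 ± 13.5 (SD, 4 mice per group), by 1.72 (adj. p (DESeq2) = 0.00173), at low counts. Without DMM 2 and without DMM 3 Foxa2 received no adjusted p, and without DMM 3 only 1 of the 6 genes was called. Mef2c (0.54, adj. p (DESeq2) = 0.00138), Runx2 (0.40, adj. p (DESeq2) = 0.00273) and Ctnnb1, which encodes beta-catenin (0.35, adj. p (DESeq2) = 4.52e-05), passed the test under 1.5-fold. Beside these values stand the osteoblast and osteocyte list (0.888 to 1.30% of counts in naive, 2.52 to 3.13% in DMM libraries) and the hypertrophic chondrocyte list (0.0609 to 0.0888% and 0.126 to 0.221%), whose part in them and in the change of Sox9 was not tested. Mef2c is also a gene of the hypertrophic chondrocyte list, so for Mef2c that list is no separate measure.

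Genes whose pattern over the 8 libraries was most like that of each trio gene were sought among 11036 genes averaging 100 normalised counts or more, by Pearson r on log2 normalised counts. The highest of so many values are high by selection and are given as a description. For Sox9 they were Ppp3ca (0.976), Crebrf (0.975), Osgin2 (0.973), Trpv4 (0.964) and Xylt1 (0.964). Trpv4 encodes a calcium channel of chondrocytes, and Xylt1 the enzyme that begins the sugar chains of proteoglycans. For Sox5 they were Ercc1 (0.996), Fermt2 (0.986), Gfpt2 (0.985), Exoc6b (0.979) and Gm14296 (0.973). For Sox6 they were Dnajb2 (0.994), Rhag (0.993), Nxpe2 (0.993), Vopp1 (0.992) and Sgo1 (0.992). Rhag encodes a protein of the red cell membrane. The trio genes shared 0 of these 5 most similar genes with each other.

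The counts of marker genes among the 100 genes most like each trio gene were also taken, a step chosen after seeing the data. For Sox9 they held Acan of 10 chondrocyte genes, Col10a1 and Alpl of 4 hypertrophic chondrocyte genes and Phex of 8 osteoblast and osteocyte genes. For Sox6 they held Slc4a1 and Ermap of 9 erythroid genes and no gene of the other lists. For Sox5 they held Emcn of 5 endothelial genes. When deviations from the group means were used, Sox6 kept Ermap, and Sox9 and Sox5 had 0 genes of any list among their 100.

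Genes that overlap the trio were few and low. Sox5os1, an antisense gene inside Sox5, reached 21.5 normalised counts in a naive and 32.3 in a DMM library, against at least 372.5 for Sox5. Its exon covers, on the other strand, a coding exon of Sox5 (transcript Sox5-201, chr6:144023169-144023237, minus strand, GRCm38), shown because a read from these 69 bases belongs to either gene if the counting ignored strand.
Sox5 exon: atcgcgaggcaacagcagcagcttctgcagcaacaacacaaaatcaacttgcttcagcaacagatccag
In all, 1303 of 14440 distinct 31-base words of the Sox5 transcripts (9.37% with those shared with other genes) occur in Sox5os1 on the opposite strand. Sox6 shared 0 such words with any gene and Sox9 shared 1.34%, of which 25 were with Sox10. Whether the counting used strand is not given in the sources used here.

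Gm44068, inside Sox5, was not analysed here, and the remaining overlapping genes of Sox5 were at 10.2 normalised counts or fewer. Gm45025, antisense to Sox6, was at 15.9 ± 7.17 in naive mice against 27.1 ± 6.42 in DMM mice (SD, 4 mice per group), a difference that did not pass the test (adj. p (DESeq2) = 0.188), and Sox6os had at most 6.80 normalised counts. BC006965, a noncoding gene on the minus strand that starts next to the start of Sox9 and was singled out after its value was seen, was at 10.8 ± 4.88 in naive mice against 18.7 ± 4.39 in DMM mice (SD, 4 mice per group, adj. p (DESeq2) = 0.259).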

How the data were processed

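Members, gene lists and marker lists were chosen with earlier results of these data known, so no list is independent evidence. The authors trimmed reads with Trimmomatic, pseudo-aligned them with Kallisto and summed transcripts to genes with tximport. The deposited table holds estimated counts, of which 39.2% are not whole, since Kallisto divides reads that fit several transcripts. The methods name GRCm38, the labels GRCh38 (a human build), and they also name different library kits. This was not resolved, and coordinates here are from GENCODE vM21 (GRCm38), looked up by gene identifier. A symbol was found for 48855 of 50462 identifiers, which held 86.6% of counts.

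Estimated counts were rounded and tested with DESeq2 1.42.0 in R 4.3.3 (median-of-ratios size factors, Wald test, log2 fold changes without shrinkage), as the methods of the study name, over all 8 libraries. Length offsets were not used. Normalised counts are estimated counts divided by the size factor. Calls needed an adjusted p (Benjamini-Hochberg, over all genes tested) of at most 0.05 and at least a 1.5-fold change. Ratios within a library had 0.5 added to each count, and ratios and marker shares were compared with two-sided exact permutation tests over all 70 assignments (scipy 1.17.1). For likeness, 1 was added before the logarithm. Named genes are the trio, overlapping genes and the 5 genes of each list with the smallest adjusted p. The 5 genes most like each trio gene are printed as well. All others, single marker genes included, were chosen after their values were seen, also where this is not said beside them. Lists are described by counts and medians, with no set test. Values of a few genes are not reported here. The labels give separate mice. Intervals of fold changes are Wald intervals. DESeq2 and edgeR were tested on simulated data first.

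Alternatives were edgeR 4.0.16 (quasi-likelihood), limma-voom (limma 3.58.1), scaling by TMM or by the total count, no independent filtering, a minimum of 10 counts in 4 libraries, no fold threshold, a 1.5-fold null, the replicate number as a block and leaving out each library. The erythroid covariate (log2 of the share of the list) was added after seeing the data.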

Additional observations from a re-analysis of the deposited data

Results flagged for a closer look

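Values were flagged where 1 library of a group of 4 stood far from its 3 neighbours by Dixon's criterion. Of 94 groups of values screened, 6 were flagged, and chance alone gives about 1 in 20, here 4.70. Among trio values, Sox9 in naive 3 was flagged at 918.3 normalised counts, with the other naive libraries between 804.9 and 817.0, and without naive 3 the log2 fold change of Sox9 was 1.12.

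The erythroid list took 0.8314% of counts in DMM 3, against 0.4030 to 0.4313% in DMM 1, 2 and 4. DMM 3 also had the most Sox6 of the DMM group, 1574 normalised counts against 960.0 to 1238. The endothelial list took 0.01886% in naive 2 and 0.02569 to 0.02659% in the other naive libraries. The skeletal muscle list took 0.003206% in naive 3 (0.0004429 to 0.0008460% in the others) and 0.009039% in DMM 1 (0.0003905 to 0.0009595% in the others), and Sox6, which is known in muscle fibres, was at 1590 and 1104 normalised counts there, within the range of their groups. Naive 2 had 16861 genes with 10 or more counts, against 18349 to 18556 in the other naive libraries. The part of these values in the changes of the trio was not tested.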

How the results depend on the processing

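Sox9 was called under every setting but the 1.5-fold null (log2 fold change 1.071, DESeq2 unadjusted p = 0.00833, adjusted p = 0.623), and Sox5 was called under none. Sox6 kept its direction throughout. Beside the fits that left out 1 library, its call changed with the replicate block (-0.586, past both thresholds) and without a fold threshold (-0.573). With the erythroid covariate its adjusted p was 0.935, whereas over the planned tests of no change it lay between 6.97e-05 and 0.0459. Leaving out 1 library gave log2 fold changes of 0.954 to 1.237 for Sox9, 0.218 to 0.566 for Sox5 and -0.720 to -0.474 for Sox6, and log2 ratio differences of -1.782 to -1.445 (Sox6 to Sox9), -0.819 to -0.423 (Sox5 to Sox9) and 0.788 to 1.243 (Sox5 to Sox6). Leaving out 1 of 4 lowers the number of assignments to 35, so the exact test cannot go below 0.0571. Another pseudocount changed no ratio's side of the threshold.

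The 1.5-fold null left 94 called genes (80 higher, 14 lower), with 0 in the Sox family, 1 target (Comp), 0 partners, 0 upstream and 0 opposing genes. Without a fold threshold 4010 genes passed (1989 lower), and 3 partners and 5 opposing genes. Total count scaling called 489 lower genes and 5 upstream genes, and the erythroid covariate 825 genes (409 higher, 416 lower). Leaving out 1 library gave 1858 to 2842 called genes, 0 to 1 partners, 2 to 5 upstream and 1 to 3 opposing genes. The replicate block called 1 opposing gene. Kat5 changed sign under total count scaling (0.004). Of 23 other named genes, leaving out a library took Smad3 below its call, left Foxa2 with no adjusted p in 2 fits (without DMM 2 and without DMM 3) and gave 3 a call that they did not have.

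Without its most abundant gene, the log2 difference of the chondrocyte list was 1.409 (p = 0.0286), of the synovial fibroblast list 0.913 (p = 0.0571) and of the Schwann cell list -0.347 (p = 0.114, two-sided exact permutation tests). Without DMM 1 the skeletal muscle list went from 1.095 to -1.088, and over all 8 omissions it ranged from -1.088 to 2.123. The causes were not tested. The replicate numbers were not taken as pairs, since the 2 groups are separate mice. Deviations of same-numbered libraries correlated at 0.043, 0.079, -0.140 and 0.126 over 17760 genes, which cannot show whether they share a batch. The block changed no call of the trio but that of Sox6. Limits are 4 mice a group, no sham group, estimated counts without length offsets, and tissue that holds bone and marrow transcripts.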
